A study of Mus musculus with 4 samples.

Results

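The genes for the proteins of the cytosolic ribosome were examined in Ruvbl2 CUT&Tag peak lists from mouse bone marrow. The members were the 81 protein-coding genes, of 21883 on chromosomes 1 to 19, X and Y, whose symbol follows the Rpl and Rps naming pattern with a number, a, p0, p1 or p2 in the RefSeq gene table for mm10, with an optional final a, x or l. Of these, 50 carry a large subunit (Rpl) name and 31 a small subunit (Rps) name. The name pattern takes in the paralogs Rpl3l, Rpl10l, Rpl32l, Rpl39l and Rps27l. It misses some genes that also encode ribosomal proteins, Rps3a1 and Fau among them, and these are described apart.

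In CUT&Tag an antibody directs a transposase to chromatin, so that DNA near the antibody's target is cut out and sequenced. Ruvbl2 is an ATPase found in several chromatin remodelling complexes, INO80 among them, and in a co-chaperone that helps to assemble snoRNPs and RNA polymerases. Leukaemia stem cells (LSC; lineage-negative cells gated as c-Kit+, CD34+, CD16/32+ and Sca-1-) came from Nup214fl/+ mice with leukaemia driven by MLL-AF9, and haematopoietic stem cells (HSC, gated as CD48-CD150+LSK) came from Nup214fl/+ mice for which no leukaemia is named. Mice of both groups thus carried 1 floxed allele of Nup214. No Cre driver and no age is given in the sources used here. The LSC gate also describes normal granulocyte-monocyte progenitors, so leukaemia and maturation cannot be told apart. Each group had 2 libraries. The protocol, which names HSCs, gives 2000 to 5000 sorted cells and 17 to 20 PCR cycles. Separate animals are not stated for them. Since the cell type field names the normal stem cell for every library, the titles gave the groups.

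Each ribosome holds a large subunit, which forms the peptide bonds, and a small subunit, which reads the messenger RNA. Their proteins are made in near-equal amounts from genes scattered over the genome, and these genes are among the most strongly transcribed in dividing cells. Ribosomal protein genes are short, and they start within a run of pyrimidines, the 5′ TOP sequence, through which the mTOR pathway controls translation of their messenger RNAs. In blood, loss of 1 copy of several of them causes Diamond-Blackfan anaemia in humans, and red cell precursors are the cells most affected.

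The deposited lists held 216077 peaks for LSC replicate 1, 210541 for LSC replicate 2, 161655 for HSC replicate 1 and 286107 for HSC replicate 2. Because list lengths differed, the 20000 peaks with the smallest p of each library were used, called listed peaks below. A gene counted as listed if at least 1 base of its body, or of the 1 kb on either side, lay under such a peak. Rank 1 is the strongest peak of a library, and fold is the authors' ratio of the pileup at a peak's summit to that library's background. At the end of these lists fold stood at 28.4 in LSC replicate 1, 18.2 in LSC replicate 2, 22.7 in HSC replicate 1 and 12.7 in HSC replicate 2. Peak lists give no read totals, so that depth is unknown, and folds of different libraries are given side by side without a comparison. Ranks place a peak within its own list, and ranks beyond 20000 depend also on the length of that list. Peak names begin alike in both replicate 1 libraries and alike in both replicate 2 libraries. What the names mark is not given in the sources used here. Peaks do not measure expression, so the cell labels could be set only beside peaks at marker genes. Within 1 kb of the gene ends, 0 of 9 stem cell markers were listed in any of the 4 libraries, HSC included. Of 9 granulocyte-monocyte markers, 5 and 5 were listed there in LSC and 5 and 7 in HSC. The share of all protein-coding genes in this window was 11.0% and 25.5% in LSC and 10.6% and 25.1% in HSC. For 3 B cell markers the counts at an end were 0 and 1 in LSC and 0 and 0 in HSC. For 3 T cell markers they were 0 and 0 in LSC and 0 and 1 in HSC. For 4 erythroid markers they were 1 and 0 in LSC and 0 and 1 in HSC. Over gene body and flanks, 2 and 3 stem cell markers were listed in LSC and 3 and 3 in HSC. Granulocyte-monocyte markers were listed there in 5 and 5 cases in LSC and 5 and 7 in HSC. B cell markers numbered 2 and 1 in LSC and 1 and 0 in HSC, and T cell markers 1 in each library. Erythroid markers numbered 1 and 0 in LSC and 0 and 1 in HSC. The share of all genes in this wider window was 32.3% and 41.2% in LSC and 30.2% and 41.2% in HSC. No library made with a control antibody was analysed, and the host of the Ruvbl2 antibody, which was followed by a goat anti-rabbit one, is not given. The part of the peaks that depends on Ruvbl2 was not tested. In bulk libraries, fewer marked cells and less signal per cell cannot be told apart.

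The promoters of 5 members are shown first, as examples with and without listed peaks over the promoter. Rps25 and Rps18 are the members with a listed peak over the promoter in all 4 libraries. Rpl13a and Rplp2 had one in both LSC libraries and in HSC replicate 2. Rpl31 had no listed peak in any library, and over its promoter a single weak one, of rank 103819 in HSC replicate 2. Each run is the RefSeq sequence of build GRCm38.p6 from 100 bases before to 30 bases after the annotated start, 5′ to 3′ on the gene's strand. Capitals mark matches to the motifs searched. On both strands these were CCGGAAG for ETS factors, then AAGATGG for the factor YY1, then GGGCGG for the factor SP1, and TATAAA for the classical core element. On the strand of the gene alone these were the pyrimidine runs CTTTCC and also CTTTTC. No motif contains another. In the order printed, the sequences lie at chr9:44407614-44407743, plus strand; chr17:33955636-33955765, minus strand; chr7:45128716-45128845, minus strand; chr7:141447551-141447680, plus strand; and chr1:39367751-39367880, plus strand.
Rps25: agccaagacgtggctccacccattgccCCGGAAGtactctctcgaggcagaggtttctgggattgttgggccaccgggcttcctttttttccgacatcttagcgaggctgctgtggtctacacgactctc
Rps18: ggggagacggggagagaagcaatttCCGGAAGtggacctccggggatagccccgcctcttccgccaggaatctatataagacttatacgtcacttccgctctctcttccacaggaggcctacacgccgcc
Rpl13a: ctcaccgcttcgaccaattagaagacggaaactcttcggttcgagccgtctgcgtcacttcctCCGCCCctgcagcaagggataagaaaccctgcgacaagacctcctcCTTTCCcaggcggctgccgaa
Rplp2: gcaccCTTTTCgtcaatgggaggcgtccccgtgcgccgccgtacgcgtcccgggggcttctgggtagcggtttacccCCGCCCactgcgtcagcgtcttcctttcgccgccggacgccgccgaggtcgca
Rpl31: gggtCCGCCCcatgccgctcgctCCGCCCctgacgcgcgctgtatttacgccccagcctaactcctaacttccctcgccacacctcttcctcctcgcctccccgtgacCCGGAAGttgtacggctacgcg
With the start counted as 1 and the base before it as -1, CCGGAAG began at -73 in Rps25 and at -75 in Rps18. Rpl31, without a listed peak, held the same letters at 9 and CCGCCC, the SP1 letters on the other strand, at -96 and -77.

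Of the 81 ribosomal protein genes, LSC replicates 1 and 2 listed 22 and 47, and HSC replicates 1 and 2 listed 19 and 55. In percent this was 27.2% and 58.0% in LSC, and 23.5% and 67.9% in HSC. Of all protein-coding genes, 32.3% and 41.2% were listed in LSC and 30.2% and 41.2% in HSC, in the same order. The family thus lay below the share of all genes in both replicate 1 libraries and above it in both replicate 2 libraries. Counts in LSC averaged 34.5 ± 17.7 and those in HSC 37.0 ± 25.5 (SD, n = 2 each), a difference of -2.50 genes that was smaller than the spread between replicates (two-sided exact permutation test over libraries, p = 1.00; adjusted over 2 tests, p = 1.00). With 2 libraries against 2, the smallest p this test allows is 0.333. The direction also differed by replicate number: LSC had more listed members at number 1 and fewer at number 2.

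**Figure D1:**
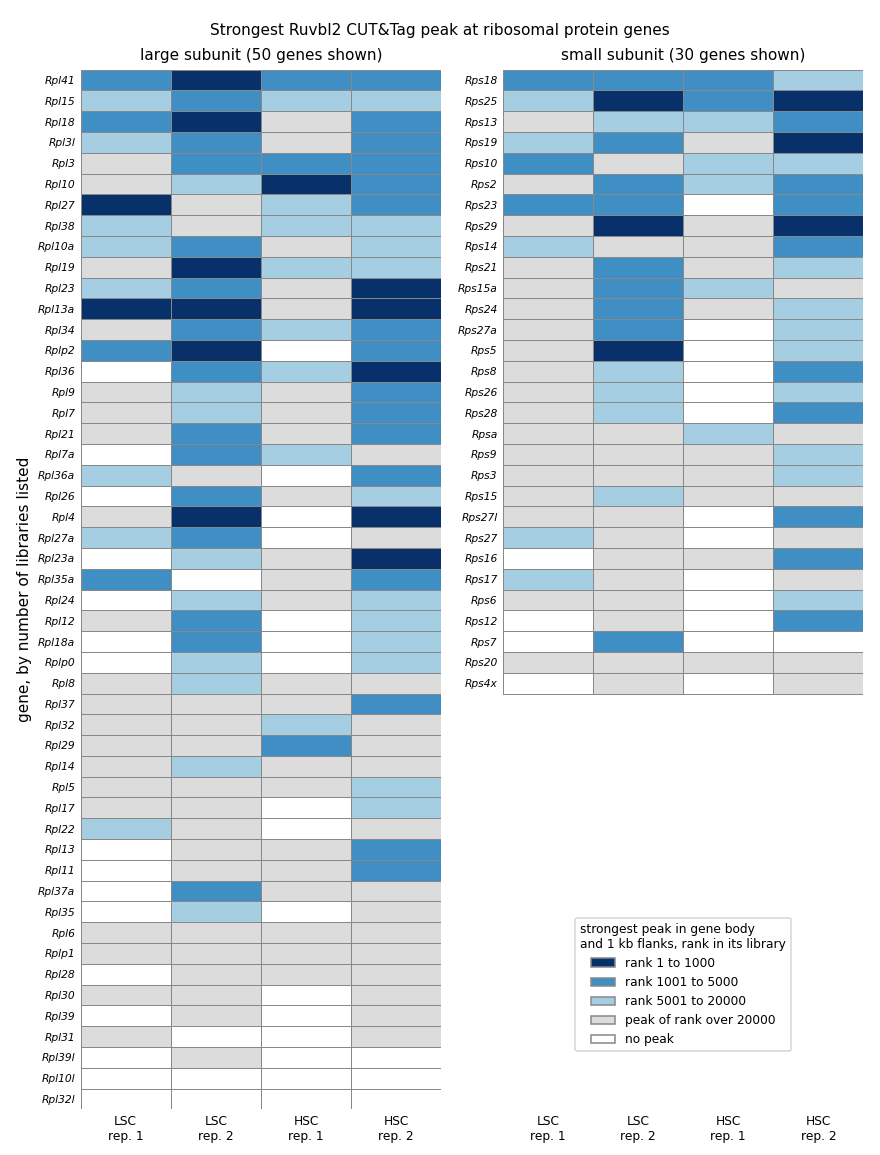
Strongest peak in the gene body and 1 kb flanks of 80 of the 81 ribosomal protein genes (rows) in each library (columns), coloured by its rank among the peaks of that library, with grey for a peak of rank over 20000 and white for no peak. The replicate 2 columns of LSC and HSC hold 46 and 54 of the listed genes, the replicate 1 columns 22 and 19.

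This window grows with gene length. Ribosomal protein genes have a median length of 3175 bp, from 592 to 11774 bp, against 17170 bp for all protein-coding genes, so that a gene body of the family offers far less room for a peak. In windows that do not grow with the gene body the order changed, although the windows around both ends run into each other in the shortest genes. Within 1 kb of either gene end, 25.9% and 54.3% of members were listed in LSC replicates 1 and 2 and 21.0% and 66.7% in HSC replicates 1 and 2. The shares of all genes were 11.0% and 25.5% in LSC, and 10.6% and 25.1% in HSC. In the 300 bases of the promoter, from 250 before to 50 after the start, 14 and 27 of the 61 members in the RefSeq promoter table were listed in LSC and 9 and 33 in HSC. These were 23.0% and 44.3% in LSC and 14.8% and 54.1% in HSC, beside 6.87% and 20.8% of the promoters of all 17491 protein-coding genes in that table in LSC, and 6.27% and 20.6% in HSC. A gene with more than 1 start in that table had a promoter window at each, and counted as listed if any of them was. The family's share was thus above that of all genes in each of the 4 libraries, at gene ends as at promoters. The set of all genes includes many that blood cells do not transcribe, and what part transcription level has in the difference was not tested.

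**Figure D2:**
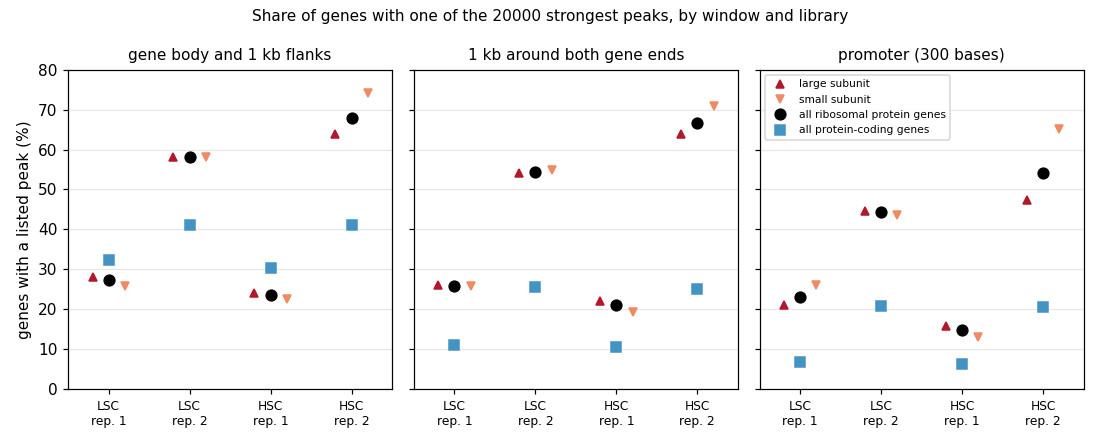
Percent of genes with a listed peak in 3 kinds of window (panels) for each library (horizontal axis), for large subunit genes, small subunit genes, all ribosomal protein genes and all protein-coding genes. In the promoter window the ribosomal protein genes lie at 14.8% to 54.1% and all protein-coding genes at 6.27% to 20.8%.

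Peaks of any strength were the rule in the replicate 2 libraries. In them 77 of 81 members had a peak in the gene body or flanks, in LSC as in HSC (95.1%). The share of all protein-coding genes was 82.3% in LSC and 85.0% in HSC. In replicate 1 the number was 60 (74.1%) in LSC and 51 (63.0%) in HSC, beside 79.4% and 73.0% of all genes. Promoters carried a peak of any strength in 44.3% and 75.4% of members in LSC and in 27.9% and 77.0% in HSC, beside 18.3% and 35.0% of all promoters in LSC and 14.8% and 37.1% in HSC. Rpl32l and Rpl10l were the members with no peak in any of the 4 lists.

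Around the annotated start, coverage by listed peaks had its maximum near the start in every library. It was highest in HSC replicate 2, where 54.1% of 61 starts of the family were covered 100 bases before the start, beside a maximum of 17.0% over all genes. LSC replicate 2 reached 41.0% at 100 bases after the start (all genes, 16.8%), LSC replicate 1 16.4% at 200 bases before it (4.35%) and HSC replicate 1 13.1% at 300 bases before it (4.12%). At the start itself the family's coverage was 11.5% and 39.3% in LSC (all genes, 4.19% and 16.6%). In HSC it was 4.92% and 49.2% there (all genes, 3.94% and 16.5%). Each gene entered with its most upstream annotated start alone. At 1000 bases upstream the family's coverage was 0% and 11.5% in LSC replicates 1 and 2, and 3.28% and 9.84% in HSC replicates 1 and 2. Of the listed members with a known strand, the strongest peak had its summit within 500 bp of a start in 12 of 20 and 23 of 35 cases in LSC, and in 9 of 15 and 32 of 42 in HSC. A summit within 500 bp of the 3′ end was seen in 1 and 2 cases in LSC and in 0 and 2 in HSC. Summit positions were not counted over all listed genes. Since the genes of the family are short, these counts do not show a preference for the start particular to it. At listed promoters the median peak width was 522 and 1127 bp in LSC and 487 and 1088 bp in HSC for members, beside 497 and 1013 bp in LSC and 569 and 1088 bp in HSC for all genes.

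**Figure D3:**
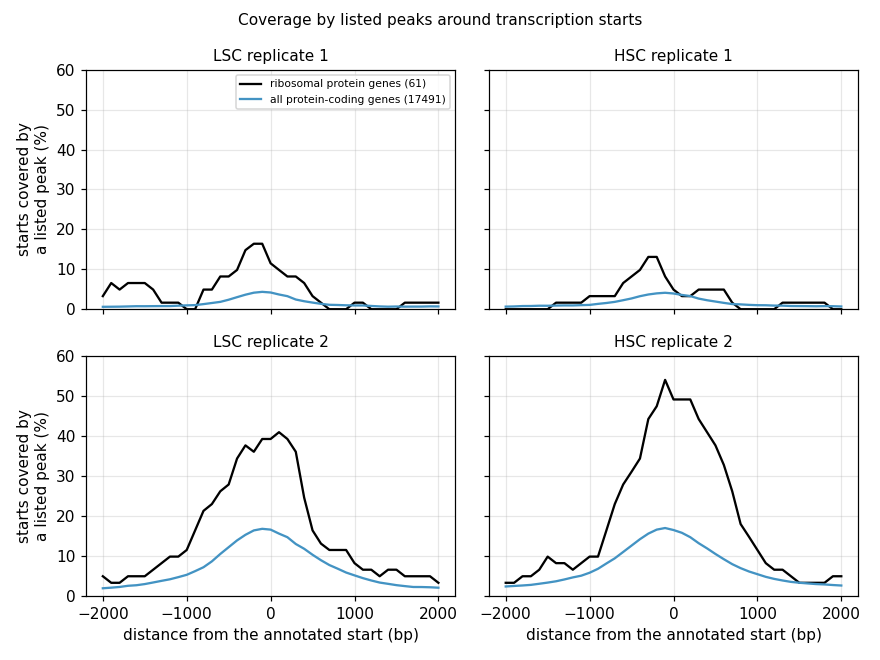
Percent of annotated starts covered by a listed peak (vertical axis) at each distance from the start in steps of 100 bp (horizontal axis, negative upstream), for 61 ribosomal protein genes and 17491 protein-coding genes in each library. The family's curve reaches 41.0% and 54.1% in replicate 2 of LSC and HSC, and 16.4% and 13.1% in replicate 1.

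Large and small subunit genes were listed to a like extent in 3 of the 4 libraries. LSC replicates 1 and 2 listed 28.0% and 58.0% of the 50 large subunit genes, and 25.8% and 58.1% of the 31 small subunit genes. For HSC replicate 1 the shares were 24.0% of large and 22.6% of small subunit genes. In HSC replicate 2 they were 64.0% of large and 74.2% of small subunit genes, and at promoters 47.4% of 38 against 65.2% of 23. The gap, large minus small, was 2.19 and -0.0645 percentage points in LSC and 1.42 and -10.2 in HSC. Its mean was 1.06 ± 1.60 points in LSC and -4.39 ± 8.21 in HSC (SD, n = 2 each; difference 5.45; two-sided exact permutation test over libraries, p = 0.667; adjusted over 2 tests, p = 1.00). Peaks of any strength lay at 68.0% and 92.0% of large and 83.9% and 100% of small subunit genes in LSC. In HSC they lay at 68.0% and 94.0% of large and 54.8% and 96.8% of small subunit genes, so that the order turned round between the groups at replicate 1.

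Only 4 members were listed in all 4 libraries (4.94%, beside 11.3% of all protein-coding genes), namely Rps25, Rps18, Rpl41 and Rpl15. Within 1 kb of the gene ends the number was also 4 (4.94%, beside 2.91%), and at promoters it was 2 of 61 (3.28%, beside 2.08%). Rps25, a small subunit protein needed for initiation on some viral RNAs, lies on chromosome 9 (44407714 to 44410406 of mm10). Its peak ranked 8739 and 833 in LSC replicates 1 and 2 and 3283 and 153 in HSC replicates 1 and 2, with folds of 44.1 and 53.2 in LSC and 46.2 and 71.5 in HSC. All 4 summits lay upstream of the start, 19 to 444 bases away, and the 4 peaks lay also in the window of the adjacent Trappc4.

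Rps18, a protein of the head of the small subunit (chromosome 17, 33951998 to 33955665), had its strongest peak at rank 1451 and 1537 in LSC and 1422 and 5446 in HSC. Folds were 86.7 and 42.1 in LSC and 54.9 and 17.8 in HSC. The summit lay 23 bases upstream of the start in LSC replicate 1, and 217 and 130 bases upstream in HSC replicates 1 and 2, in the window shared with Vps52. In LSC replicate 2 the strongest peak lay near the 3′ end, in the window of B3galt4, and the promoter peak ranked 3568. The ranks of the groups overlapped at both genes.

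Rpl41 encodes the shortest ribosomal protein (chromosome 10, 128548110 to 128549168). Its ranks were 4991 and 278 in LSC and 3135 and 1359 in HSC, with folds of 59.1 and 78.8 in LSC and 46.5 and 28.8 in HSC. The ranks of the groups overlapped, but the summits lay 522 and 689 bp beyond the 3′ end in LSC replicate 1 and HSC replicate 2, and within 149 bases of the start in LSC replicate 2 and HSC replicate 1. Rpl15, a large subunit protein (chromosome 14, 18267823 to 18270986), ranked 7172 and 3232 in LSC and 10812 and 5225 in HSC, with folds of 49.2 and 31.3 in LSC and 31.2 and 18.0 in HSC. The ranks of the groups overlapped here too, and the LSC replicate 1 peak lay 921 bp beyond the 3′ end while the others lay 164 to 251 bases upstream of the start. The Rpl41 peak of HSC replicate 2 was 2589 bp wide and overlapped the strongest peak of every other library. That of LSC replicate 1 overlapped neither the LSC replicate 2 nor the HSC replicate 1 peak, and these last overlapped each other. At Rpl15 the peaks of LSC replicate 2 and of both HSC libraries overlapped, and that of LSC replicate 1 lay apart.

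All 4 of these genes had another protein-coding gene so close that the windows met, as did 42 of the 81 members. A peak in a shared window belongs to both genes, and these lists cannot tell them apart. Members with such a neighbour were listed in 35.7% and 73.8% of cases in LSC and 28.6% and 73.8% in HSC. Those without one were listed in 17.9% and 41.0% of 39 cases in LSC and 17.9% and 61.5% in HSC. The share of all protein-coding genes in this window was 32.3% and 41.2% in LSC and 30.2% and 41.2% in HSC. Members without a neighbour thus lay above that share in HSC replicate 2 alone, in a window that grows with gene length and without matching for length. The split was not made at gene ends or promoters. All protein-coding genes were not split by neighbour, so whether the difference is particular to the family was not tested.

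Between the replicate 2 libraries the family overlapped widely. At number 2, 38 members were listed in LSC and HSC alike (46.9%, beside 28.8% of all genes), 9 in LSC and not HSC (11.1%, beside 12.4%) and 17 in HSC and not LSC (21.0%, beside 12.4%). At number 1, 7 were listed in both (8.64%, beside 17.3%), 15 in LSC and not HSC (18.5%, beside 15.0%) and 12 in HSC and not LSC (14.8%, beside 12.9%). Neither cell type listed 17 members at number 2 (21.0%, beside 46.4%) and 47 at number 1 (58.0%, beside 54.8%). All of these shares are for the gene body and flanks, a window that grows with gene length. The strongest peaks also overlapped each other at 30 of the 38 genes shared at number 2, and at 3 of the 7 shared at number 1 (Rps25, Rps18 and Rpl27). Within a cell type, both LSC libraries listed 13 members (16.0%, beside 21.2%) and both HSC libraries 14 (17.3%, beside 20.1%). The strongest peaks overlapped at 8 of these 13 and 9 of these 14. Overlap of strongest peaks was not counted over all genes. In the short windows of this family it does not show an agreement of sites particular to it.

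**Figure D4:**
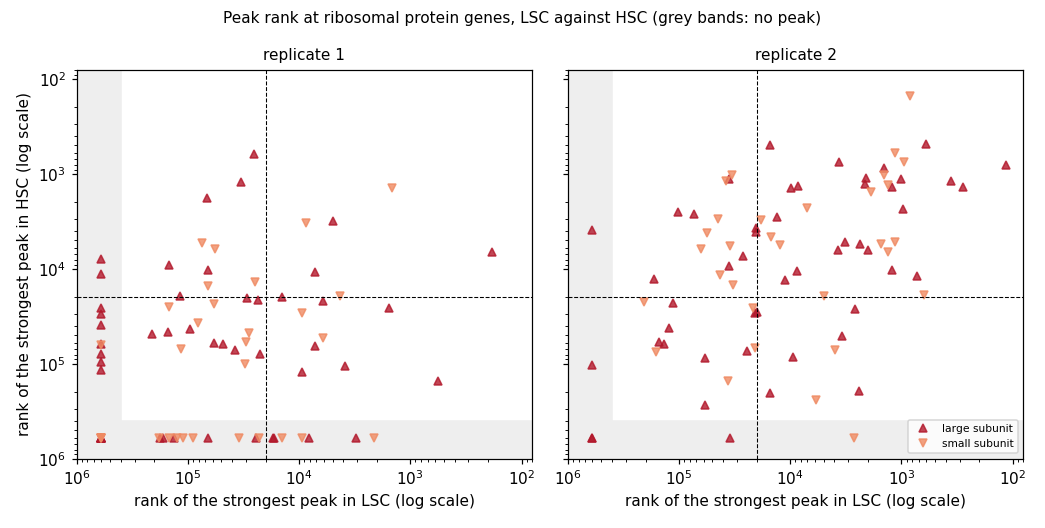
Rank of the strongest peak at each ribosomal protein gene in LSC (horizontal, log scale) against HSC (vertical, log scale) at replicate 1 (left) and replicate 2 (right), with strong peaks to the right and top, dashed lines at rank 20000 and grey bands for genes with no peak. The upper right quadrant holds 7 genes at replicate 1 and 38 at replicate 2.

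A single member, Rpl27a, was listed in both LSC libraries and in no HSC library (1.23%, beside 2.35% of all genes), and 0 members were in the reverse case (0%, beside 2.09%). At Rpl27a, a large subunit gene on chromosome 7 (109519195 to 109522369), the peak ranked 16969 and 3446 in LSC with folds of 30.6 and 30.7. In HSC replicate 1 there was no peak, and in HSC replicate 2 the strongest ranked 50309 with a fold of 9.92. The LSC peaks did not overlap: the summit lay 2860 bases downstream of the start, near the 3′ end, in replicate 1 and 74 bases downstream of the start in replicate 2. Over the promoter the LSC replicate 1 peak ranked 183719, with 50309 for the HSC replicate 2 peak there.

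A larger set followed the replicate number. Both replicate 2 libraries and neither replicate 1 library listed 19 members (23.5%, beside 7.30% of all genes), and 0 members showed the reverse (0%, beside 1.93%). These counts were made in the gene body and 1 kb flanks alone, a window that grows with gene length. Listed peaks had a median width of 371 and 634 bp in LSC and 484 and 714 bp in HSC. What part gene length and peak width have in the counts was not tested. Among the 19 members, Rpl4, Rps29, Rpl21 and Rps27a had some of the best ranks, by the worse of the replicate 2 ranks. Rps29, a small zinc-binding protein of the 40S head that is mutated in some Diamond-Blackfan anaemia families, ranked 28367 and 941 in LSC and 47150 and 755 in HSC. Rpl21 ranked 210708 and 1209 in LSC and 48265 and 1373 in HSC. At both genes the replicate 2 peaks were among the strongest of their lists and the replicate 1 peaks fell outside the listed range.

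Rps27a, which encodes a ubiquitin fused to a ribosomal protein, ranked 22929 and 1141 in LSC and had no peak in HSC replicate 1 and rank 5191 in HSC replicate 2. Rpl4, whose protein lines the exit tunnel for the new peptide, ranked 65651 and 606 in LSC, and in HSC had no peak in replicate 1 and rank 483 in replicate 2. These strong Rpl4 peaks lay 966 and 948 bp beyond the 3′ end, in the window of Snapc5, and not at the Rpl4 promoter, where the ranks were 2569 in LSC and 68313 in HSC.

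The ribosomal stalk, which recruits elongation factors, is built from the products of Rplp0, Rplp1 and Rplp2. Rplp2 ranked 3107 and 356 in LSC, with folds of 70.8 and 71.6, and in HSC had no peak in replicate 1 and rank 1199, with a fold of 30.1, in replicate 2. All of its peaks lay 160 to 329 bases upstream of the start, in the window shared with Pidd1. Rplp0 had no peak in either replicate 1 library and ranked 8656 in LSC replicate 2 and 10465 in HSC replicate 2. Rplp1 was listed in no library, with ranks of 22515 and 57819 in LSC and 79527 and 273616 in HSC. The stalk genes thus ranged from strong to weak. The strongest Rplp1 peak of LSC replicate 2 overlapped those of both HSC libraries, which did not overlap each other. That of LSC replicate 1 lay on the other side of the gene from the rest.

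Rpl5 and Rpl11, whose proteins bind 5S RNA and inhibit Mdm2 when ribosome assembly fails, were both listed in HSC replicate 2 alone. Rpl11 ranked 2519 there with a fold of 23.0, against 62308 in HSC replicate 1, 102776 in LSC replicate 2 and no peak in LSC replicate 1. Rpl5 ranked 48075 and 166901 in LSC and 62443 and 12764 in HSC. All of these peaks lay inside the gene. The summit was 170 bases downstream of the start in HSC replicate 2 and 6724 in HSC replicate 1. In LSC replicates 1 and 2 it was 2554 and 5914 bases downstream. The strongest peaks at Rpl5 thus did not overlap between libraries, and weaker ones were not compared.

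Rps19 and Rps14 are the members best known from human anaemias, Rps19 from Diamond-Blackfan anaemia and Rps14 from the deletion of the long arm of chromosome 5 (5q). Rps19 (chromosome 7, 24884592 to 24889811) ranked 6049 and 1151 in LSC and 52879 and 609 in HSC, with folds of 54.0 and 47.2 in LSC and 16.1 and 39.7 in HSC. All 4 peaks had their summits upstream of the start, between 279 and 564 bases away, and only that of HSC replicate 1 was too weak to be listed. Rps14 ranked 9426 and 38174 in LSC and 29438 and 1193 in HSC, so that 1 library of each group listed it.

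Rpl13a, which in human cells can leave the ribosome to silence inflammatory messenger RNAs, had the best rank of the family in LSC replicate 2. Its ranks were 569 and 114 in LSC, with folds of 107 and 109, and 151566 and 808 in HSC, with folds of 5.47 and 35.7. The 4 summits lay 87 to 292 bases upstream of the start. The peak was thus within the strongest 1000 of its list in both LSC libraries and in HSC replicate 2, and far outside the listed range in HSC replicate 1.

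Rpl10 on the X chromosome, a late-joining large subunit protein mutated in some human T cell leukaemias, was strongest in HSC replicate 1, where it had the best rank of the family. It ranked 25534 and 9753 in LSC and 614 and 1397 in HSC, with folds of 25.4 and 22.2 in LSC and 65.6 and 28.6 in HSC. It was listed in all but LSC replicate 1. Each peak overlapped the promoter window. Rpl27 had the best rank of the family in LSC replicate 1, a feature noted after its values were seen: it ranked 184 and 35539 in LSC and 6628 and 1145 in HSC, so that the LSC replicates lay on either side of the HSC ones.

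The substrate of S6 kinase, Rps6, was listed in HSC replicate 2 alone (rank 11473), with ranks of 149101 and 42636 in LSC and no peak in HSC replicate 1. Rpsa, also known as a laminin receptor, was listed in HSC replicate 1 alone (rank 6172), beside 57437 and 21645 in LSC and 25884 in HSC replicate 2. Rpl22, whose loss in mice impairs T cell development, was listed in LSC replicate 1 alone (rank 8152), and ranked 24398 in LSC replicate 2 and 73861 in HSC replicate 2, with no peak in HSC replicate 1. Each of the 3 was thus listed in a single library.

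Among the paralogs, Rpl10l, expressed in testis, and Rpl32l had no peak. Rpl39l, also expressed in testis, had a peak in LSC replicate 2 alone, at rank 34613 and inside the gene. Rpl3l, which replaces Rpl3 in muscle, was listed in 3 libraries, with ranks of 6039 and 2076 in LSC and 21886 and 1101 in HSC. Its peaks lay 361 to 1270 bp from its 3′ end, in the window of Msrb1 in all 4 libraries, and its promoter peaks ranked 19843 in LSC replicate 1 and 83467 in HSC replicate 2 with none in the other libraries. Rps27l, which p53 induces, ranked 34387 and 33107 in LSC, and in HSC had no peak in replicate 1 and a promoter peak of rank 1032 in replicate 2. Rpl3 itself ranked 33363 and 1004 in LSC and 1215 and 1122 in HSC. Rps27 ranked 9355 and 20635 in LSC, and in HSC had no peak in replicate 1 and rank 67295 in replicate 2.

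Of the 81 members, 11 were listed in no library (13.6%, beside 35.6% of all genes): Rpl31, Rps20, Rpl6, Rpl28, Rplp1, Rpl32l, Rpl10l, Rpl30, Rpl39l, Rpl39 and Rps4x. Of the others, 23 were listed in 1 library (28.4%, beside 20.9%), 25 in 2 (30.9%, beside 18.0%) and 18 in 3 (22.2%, beside 14.2%). Several missed or met the limit narrowly. Rpl6 at rank 20135 in HSC replicate 1 and Rpl36a at 20204 in LSC replicate 2 lay just outside, Rpl8 at 19751 in LSC replicate 2 and Rps10 at 19396 in HSC replicate 1 just inside.

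Many ribosomal protein genes carry snoRNA genes in their introns, here 29 of the 81. The hosts were listed in 13.8% and 55.2% of cases in LSC and 24.1% and 72.4% in HSC, and the 52 other members in 34.6% and 59.6% in LSC and 23.1% and 65.4% in HSC. Over all protein-coding genes these shares were 32.3% and 41.2% in LSC and 30.2% and 41.2% in HSC. In LSC replicate 1 the hosts thus lay below and the other members above. In HSC replicate 1 both lay below, and in both replicate 2 libraries both lay above. These shares are for the gene body and flanks, without matching for length. The strongest listed peak lay over a snoRNA in 0 and 5 cases in LSC and in 0 and 5 in HSC. Ribosomal protein messages have also left many processed pseudogenes in the genome, whose exons resemble those of the parent genes, and how reads that match several places were treated is not given in the sources used here. Of 318 pseudogenes with a ribosomal protein name, 2 and 7 were listed in LSC and 9 and 6 in HSC, or 0.629% and 2.20% in LSC and 2.83% and 1.89% in HSC. Over all pseudogenes the shares were 3.22% and 3.25% in LSC and 3.62% and 3.47% in HSC. The share of the copies was thus below that of all pseudogenes in each library, in a window that grows with length and without matching for length. What part reads that match several places have in the peaks was not tested.

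The promoters of the family were set beside those of all protein-coding genes for the motifs named above. CCGGAAG was found in 24 of 61 members (39.3%) and in 11.9% of all promoters, and CTTTCC in 21 (34.4%, beside 13.8%). CTTTTC was found in 12 (19.7%, beside 10.6%), AAGATGG in 9 (14.8%, beside 6.35%), GGGCGG in 35 (57.4%, beside 46.3%) and TATAAA in 7 (11.5%, beside 13.3%). Median GC content was 57.0% in the family and 56.3% in all promoters. CCGGAAG occurred in 8 of the 19 members whose promoter was listed in both replicate 2 libraries, and in 7 of the 20 listed there in neither. In the same order the counts were 13 and 8 for GGGCGG, and 4 and 2 for CTTTTC. They were 6 and 9 for CTTTCC, and 1 and 4 for AAGATGG. For TATAAA they were 2 and 3. Median GC content was 59.3% in those 19 and 53.8% in those 20. A match says that the letters are present in the window.

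Ribosomal genes outside the name pattern followed the same replicate order. Of 8, 3 and 7 were listed in LSC and 3 and 6 in HSC over gene body and flanks, where 32.3% and 41.2% of all protein-coding genes were listed in LSC and 30.2% and 41.2% in HSC. Rpl36al, a close relative of the member Rpl36a, ranked 2313 and 888 in LSC and 17891 and 811 in HSC, so that it was listed in every library. Fau, which encodes a ribosomal protein fused to a ubiquitin-like one, ranked 44365 and 7044 in LSC and 34894 and 2414 in HSC.

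Genes that work with the ribosome were listed at their ends as follows. The share over the whole gene table in this window was 11.0% and 25.5% in LSC and 10.6% and 25.1% in HSC. Of 26 ribosome biogenesis genes 5 and 18 were listed at an end in LSC and 7 and 18 in HSC, and of 7 elongation factor and other TOP genes 3 and 7 in LSC and 3 and 6 in HSC. For 11 RNA polymerase I genes the counts were 0 and 5 in LSC and 0 and 2 in HSC, and for 6 regulators of ribosomal protein genes 3 and 5 in LSC and 3 and 4 in HSC. In every one of these lists replicate 2 exceeded replicate 1 in both cell types, as it did over all protein-coding genes. In the body and flanks, Eef2 and Eef1g (translation elongation), Fbl (the rRNA methyltransferase fibrillarin) and Ubtf (which opens rDNA to RNA polymerase I) were listed in all 4 libraries. Eef2 ranked 8512 and 939 in LSC and 3298 and 1333 in HSC, and Fbl 4267 and 355 in LSC and 4027 and 2143 in HSC. The ranks of the groups overlapped at both genes.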

How the data were processed

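The submitters' processing notes name FastQC 0.11.5, Bowtie2 2.2.9, MACS2 and the build mm10; the peak caller's version, threshold and duplicate handling are not stated. The authors deposited 1 peak list per library. Each peak has a deposited score, a deposited fold (a ratio to the library's background), and deposited −log10 p and −log10 q values, all used only within a list.

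Peaks of the autosomes, X and Y were ranked by −log10 p, and the 20000 strongest kept; fold gave the same order. Overlap meant at least 1 bp. Gene coordinates and promoters came from RefSeq, GRCm38.p6 (the mm10 coordinates); 61 of 81 members had a promoter entry. Groups and replicate numbers came from the titles. Counts per library were compared with an exact permutation test over libraries; where no separate animals are stated, p measures the spread between these libraries only. Counting was tested on simulated lists in which the planted peaks were stronger than all others. This checked that planted genes were recovered, and not that other genes stayed unlisted. Python 3.11.15, pandas 2.3.3, numpy 2.4.6 and matplotlib 3.10.9 were used.

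The members and lists were chosen with earlier results of these data known. Named genes were up to 10 members listed in all libraries, those listed in both libraries of a group and neither of the other, those without a peak, up to 5 that followed a replicate number, the paralogs, and 12 fixed by role; Rps4l had no protein-coding match, and some named genes are not reported here. Other genes were named after their values were seen. Alternatives covered list length, ranking, a −log10 q of at least 10, overlap, window, members, each library left out, and the pairing by number.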

Additional observations from a re-analysis of the deposited data

How the results depend on the processing

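Over 18 alternatives, 104 of 156 recomputed values stayed within limits, 39 moved and 13 reversed. The limits were a count within 1.5 times that reported, a mean large minus small gap within 1 SD of the 4 libraries (5.76 points), and the same sign for a difference between LSC and HSC. Ranking by fold could change nothing, since fold gave the same order. Taking the replicate number as a block leaves both differences between LSC and HSC as they are. These values are thus among the 104 by construction. Requiring the summit in the window moved no value past these limits, nor did leaving out the paralogs ending in l, nor using only members with a promoter entry (chosen after seeing the data). Within the limits, the gap went to -0.0484 with the summit and -0.181 without the paralogs (-1.66 as reported), and its LSC minus HSC difference to 2.23, 2.83 and, with a promoter entry, 14.8 (5.45 as reported).

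With the full deposited lists, 60 and 77 members had a peak in LSC replicates 1 and 2 and 51 in HSC replicate 1, 40 had one in all 4 libraries and 0 in LSC alone. The LSC minus HSC difference in members became 4.5 and that in the large minus small gap -17.1 points. With a −log10 q of at least 10 these were 59, 76, 50, 35, 0, 5.0 and -16.1. The 10000 strongest peaks left 11 members in HSC replicate 1 and a difference in members of 0.0. The 40000 strongest gave 35 in LSC replicate 1 and 30 in HSC replicate 1, 14 in all 4 libraries, 4 in LSC alone and 1 in HSC alone, a difference of 3.0 and a gap difference of -1.84. With at least 50% of a peak required in the window the gap was 0.258 points and its difference -0.387. Without flanks HSC replicate 1 had 12 members, 2 were in all libraries and 1 in HSC alone, and the gap difference was -1.39. Flanks of 3 kb gave 10 in all libraries, 2 in LSC alone and 1 in HSC alone, and gene ends gave 1 in HSC alone. The promoter window gave 14 and 27 in LSC, 9 and 33 in HSC and 2 in all 4. The cause was not tested. Apart from libraries left out, the difference in members was positive with the longer lists and the −log10 q limit and negative under every overlap and window. The gap turned positive with the 50% overlap. Its difference turned negative with the longer lists, the −log10 q limit, the 50% overlap and the body without flanks. With 2 libraries against 2 the exact permutation test cannot pass.

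Leaving out 1 library at a time gave 4 to 12 members in all remaining libraries, 1 to 9 in LSC alone (highest without HSC replicate 2) and 3 to 11 in HSC alone (highest without HSC replicate 1). The difference in members ranged from -20.5 without HSC replicate 1 to 15.5 without HSC replicate 2, and was 10.0 without LSC replicate 1. The gap ranged from -2.95 to 1.18 points and its difference from -0.355 to 11.3, the reversed values being those without HSC replicate 2.

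With the replicate number as a block (replicate block; sign flip over 2 pairs, smallest p 0.500) the difference in members stayed -2.5 (exact p = 1.00) and that in the gap 5.45 (exact p = 0.500). The replicate 1 minus 2 differences of LSC and HSC correlated at 0.130 across 21883 genes, and the labels do not say that a number marks a shared day or animal. With 2 libraries in a group, an outlying library cannot be told apart from the spread.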
